A study of Mus musculus with 9 samples.

Results

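The genes described here are 10 genes of the desmosome and of cell junctions: the plakophilins Pkp1, Pkp2, Pkp3 and Pkp4, desmoplakin (Dsp), plakoglobin (Jup), the desmosomal cadherins Dsg2 and Dsc2, and the junction proteins Perp and Ajap1. They were found by symbol in a deposited expression table of 25965 genes, which holds 1 row for each of the 10. The set was chosen on the comparison of Smchd1-deleted with undeleted cells in these same libraries, because Pkp2 and Ajap1 stood out there. Values of the 10 genes in that comparison are therefore a description: the fit across all genes included them, but its calls on them are no independent evidence.

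Desmosomes are patches that fasten neighbouring cells together and anchor their intermediate filaments. Desmogleins and desmocollins are cadherins that bridge the gap between the cells. Inside the cell their tails bind plakoglobin and plakophilins, armadillo-repeat proteins that link them to desmoplakin, and desmoplakin holds the filaments. The structure is best known from skin and heart. In the developing brain, neural stem cells are held together mainly by adherens junctions, which use classical cadherins and catenins and anchor actin.

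RNA was sequenced from neural stem cell lines of C57BL/6 mice, made from embryos of day 14.5 that carried floxed alleles of Smchd1 (fl/fl). Smchd1 encodes a chromatin repressor of the inactive X chromosome and of some gene clusters. Each established line was divided: the del/del cultures received the retrovirus MSCV-Cre-puro, had puromycin from 24 h and were harvested 7 days after transduction, while the fl/fl cultures stayed untransduced. The sample labels give 3 female del/del (lines 1, 2 and 3), 1 male del/del (line 5), 3 female fl/fl (lines 1, 2 and 3) and 2 male fl/fl libraries (lines 5 and 7). The series' design text calls the lines female and the controls del/fl, and the sample labels were followed. Loss of Smchd1, the retrovirus, Cre and puromycin came together in every del/del culture and cannot be told apart. In bulk RNA, fewer cells of a type and less RNA per cell cannot be told apart either.

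Library scaling corresponded to 24.1 M to 116.6 M reads, the lowest in female fl/fl 2. Smchd1, counted over its whole row, was at 5.04 to 5.36 log2 RPM (reads scaled to library size) in del/del and 6.16 to 6.81 in fl/fl, and fell by 1.19 on the log2 scale (adjusted p = 0.00751, limma with Benjamini-Hochberg adjustment over 14044 genes). All 12 neural stem cell markers on the list used were measured, with summed levels of 680 to 921 RPM in del/del and 630 to 1301 RPM in fl/fl. Of 13 epithelial markers, Grhl2 alone passed the filter on low values that all tests used (0 or more log2 RPM in 3 or more libraries). The keratin Krt5 had no read and the keratin Krt14 had 2 reads over all 9 libraries. Over the genes that passed the filter, the median level was 4.46 log2 RPM in female fl/fl 2 and 4.38 in female del/del 1. In the other libraries this median was 4.10 to 4.26. The levels printed here and the main fit carry this offset.

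The 10 genes covered a wide range of levels, shown here per kilobase of annotated exon so that genes can be compared. In fl/fl cells, Pkp4 had the highest level, 16.1 ± 2.40 RPM per kb (SD, n = 5). Pkp4 is the plakophilin that is found at adherens junctions as well as desmosomes. Jup, the armadillo protein shared by desmosomes and adherens junctions, followed at 3.05 ± 0.476 RPM per kb. Perp, a tetraspan membrane protein of desmosomes and a p53 target, was at 1.47 ± 0.253, and Pkp2, the plakophilin of heart and simple epithelia, at 1.03 ± 0.159 RPM per kb. Ajap1, a transmembrane protein that associates with adherens junctions, was at 0.431 ± 0.350 and Dsc2 at 0.416 ± 0.0687 RPM per kb. The other 4 genes were far lower, from 0.00611 RPM per kb for Pkp3 to 0.0182 for Dsg2. The fl/fl ranges separated Pkp4 from Jup, Jup from Perp, and Dsc2 from Dsg2. Every other neighbouring pair in the order had overlapping ranges. In del/del cells the order per kb of exon differed: Ajap1 stood second at 3.71 ± 1.41 RPM per kb (SD, n = 4), beside Perp at 3.32 and Jup at 3.28. Reads had been counted over whole rows with introns included, and dividing by row length instead left 3 of the 10 genes at the same rank in fl/fl cells, with Jup first. Exons make up 2.78% of the Ajap1 row, 16.3% of the Perp row and 22.3% of the Jup row. With introns counted, a small exon share raises a value per kb of exon. The order per row length was not taken in del/del cells, so the place of Ajap1 there holds per kb of exon only.

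**Figure D1:**
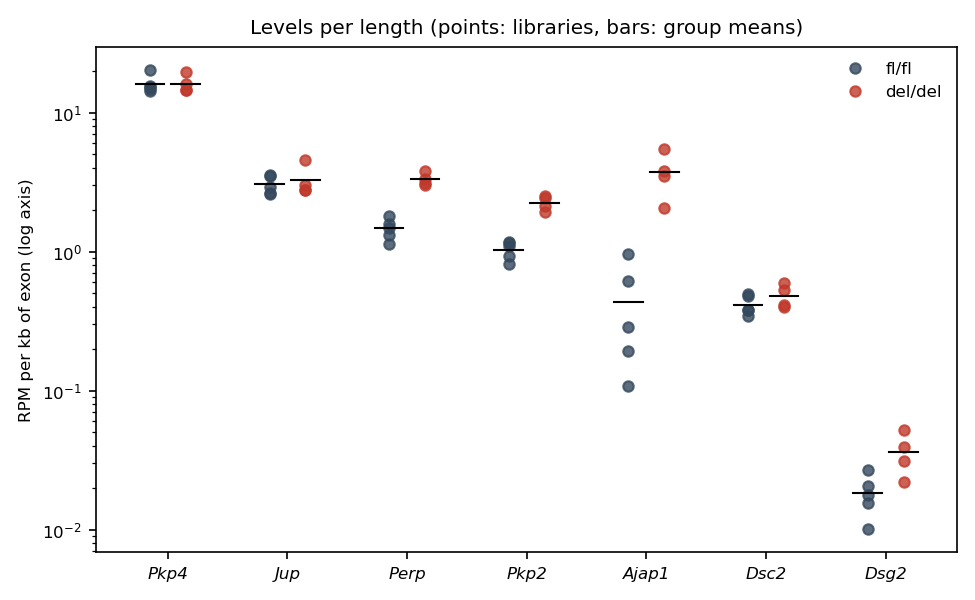
Level in RPM per kb of annotated exon, on a log axis, in fl/fl and del/del libraries, for genes with a read in every fl/fl library. Pkp1, Dsp and Pkp3, which had no read in female fl/fl 2, are not drawn. Pkp4 and Jup lead in fl/fl, where Pkp4 averages 16.1 and Jup 3.05 RPM per kb, and Ajap1 moves from 0.431 RPM per kb in fl/fl to 3.71 in del/del.

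RefSeq promoter sequences (build GRCm38.p6) matched 4 of the 10 genes, Ajap1, Dsp, Jup and Pkp4. Sequences are shown for Ajap1 and Dsp, whose values in del/del lay above every fl/fl value, and for Jup, a partner in the desmosome whose values overlapped. Each is the 250 bases before the annotated start, 5′ to 3′ on the gene's strand: chr4:153482831-153483080 (minus strand) for Ajap1, chr13:38151044-38151293 (plus strand) for Dsp and chr11:100397791-100398040 (minus strand) for Jup. Capitals mark GGGCGG, the core of the GC box, or its reverse complement CCGCCC.
Ajap1: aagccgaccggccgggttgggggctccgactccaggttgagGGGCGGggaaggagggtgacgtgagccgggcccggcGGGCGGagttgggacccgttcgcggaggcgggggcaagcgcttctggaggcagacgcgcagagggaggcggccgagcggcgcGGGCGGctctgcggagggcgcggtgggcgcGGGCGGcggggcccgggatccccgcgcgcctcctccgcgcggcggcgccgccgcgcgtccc
Dsp: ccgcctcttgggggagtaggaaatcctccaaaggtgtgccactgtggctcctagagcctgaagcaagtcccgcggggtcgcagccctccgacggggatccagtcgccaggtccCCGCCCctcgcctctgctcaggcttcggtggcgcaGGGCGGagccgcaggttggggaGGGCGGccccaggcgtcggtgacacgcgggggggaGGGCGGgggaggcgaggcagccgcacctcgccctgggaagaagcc
Jup: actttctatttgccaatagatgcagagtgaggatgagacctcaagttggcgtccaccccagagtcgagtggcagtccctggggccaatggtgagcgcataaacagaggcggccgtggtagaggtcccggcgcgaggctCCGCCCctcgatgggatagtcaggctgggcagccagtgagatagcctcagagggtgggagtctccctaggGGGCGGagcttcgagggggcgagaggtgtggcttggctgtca

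The Ajap1 window held GGGCGG on either strand 4 times, the Dsp window 4 times and the Jup window 2 times. Of 32851 promoter windows of the same length, 32.7% held it at least once. The Ajap1 window also held 43 CG dinucleotides, against a median of 6, and 99.5% of promoters held no more. Dsp held 22 and Jup 13, and 86.7% and 70.6% of promoters held no more. The E-box CACCTG, present in 17.2% of promoters (either strand), and the AP-1 site TGACTCA, present in 4.46%, had no match in these 3 windows. Pkp4 has 2 listed starts, with 5 and 0 matches to GGGCGG, 0 and 1 matches to CACCTG, and 21 and 32 CG dinucleotides. All of these windows held more CG dinucleotides than the median promoter, at the genes whose groups were separate (Ajap1, Dsp) and at those whose groups overlapped (Jup, Pkp4).

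Among the plakophilins, Pkp2 (chr16:16213318-16272712) was higher in every del/del library than in any fl/fl library. Its levels were 3.70, 3.51 and 3.38 log2 RPM in female del/del 1, 2 and 3 and 3.76 in male del/del 5. In fl/fl they were 2.55, 2.12 and 2.31 in females 1, 2 and 3 and 2.63 and 2.66 in males 5 and 7. The groups did not overlap, and the lowest del/del value was 0.72 above the highest fl/fl value. The fitted log2 difference, del/del minus fl/fl with sex as a covariate, was 1.17 (SE 0.118), or 2.26-fold. Within the 4 lines the difference was 1.15, 1.38, 1.07 and 1.12 for lines 1, 2, 3 and 5, so that it varied little between lines. These levels rest on 963 to 1376 reads per del/del library and 105 to 730 per fl/fl library.

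Pkp4 (chr2:59160850-59355208) did not separate the groups. It was at 6.82, 6.37, 6.52 and 6.38 log2 RPM in del/del (females 1 to 3, male 5) and at 6.46, 6.85, 6.35, 6.40 and 6.48 in fl/fl (females 1 to 3, males 5 and 7). The fitted log2 difference was -0.01 (SE 0.149), and the 4 lines had differences of both signs, from -0.49 in line 2 to 0.36 in line 1. Pkp1, the plakophilin of stratified epithelium, had 0 to 9 reads per library, and its RPM pooled over the libraries of a group was 1.11 times as high in del/del as in fl/fl. Pkp3, which accompanies most desmosomes of epithelia, had 0 to 6 reads per library, near the limit that a count of 0 allows (3 reads), so that no fold is given.

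Dsp (chr13:38151328-38198577), the filament-binding plakin that every desmosome needs, was close to the limit of detection. It had 25, 39 and 30 reads in female del/del 1, 2 and 3 and 30 in male del/del 5. In fl/fl it had 18, 0 and 8 reads in females 1, 2 and 3 and 7 and 21 in males 5 and 7. Scaled by depth, the del/del libraries lay between 0.295 and 0.371 RPM and the fl/fl libraries between 0 and 0.182 RPM, with no overlap. Pooled over libraries, Dsp was at 0.326 RPM in del/del and 0.115 RPM in fl/fl, a ratio of 2.85. In line 2, where the fl/fl library had no Dsp read, the del/del culture was at least 2.98-fold higher when set against 3 reads in that library, which was also the shallowest. Dsp did not pass the filter on low values and was not part of the fit.

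Jup (chr11:100368958-100397763), the plakoglobin that joins cadherin tails to desmoplakin, had 4.88, 4.28, 4.15 and 4.15 log2 RPM in del/del (females 1 to 3, male 5). In fl/fl it had 4.50, 4.08 and 4.06 in females 1 to 3 and 4.53 and 4.24 in males 5 and 7. The groups overlapped, with a fitted log2 difference of 0.09 (SE 0.180). Its lines differed in sign, from -0.37 in line 5 to 0.38 in line 1.

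The desmosomal cadherins also overlapped between the groups. Dsc2 had 1.08, 1.64, 1.11 and 1.48 log2 RPM in del/del and 0.86, 0.99, 1.01, 1.34 and 1.40 in fl/fl, with a fitted log2 difference of 0.26 (SE 0.169). Each of its 4 lines was higher in del/del, by 0.10 to 0.65. Dsg2, which did not pass the filter, had 32, 27, 18 and 33 reads in del/del and 26, 2, 14, 18 and 17 in fl/fl. Its 4 lines were likewise higher in del/del, by 0.51 to 1.63 on the log2 scale, and the pooled ratio was 1.77. The 1.63 is that of line 2, whose fl/fl library had 2 reads, under the limit of 3 reads, so its size is uncertain. The Dsg2 row overlaps the row of Gm16090, so that its few reads may be shared. The male fl/fl libraries reached into the del/del range of Dsc2, and female fl/fl 1 into that of Dsg2.

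Perp (chr10:18845071-18857073) was higher in every del/del library. It was at 2.57, 2.71 and 2.89 log2 RPM in female del/del 1, 2 and 3 and at 2.60 in male del/del 5. In fl/fl it was at 1.37, 1.54 and 1.62 in females 1, 2 and 3 and at 1.16 and 1.82 in males 5 and 7. The groups were separated by 0.75. The fitted log2 difference was 1.18 (SE 0.158), or 2.27-fold, and the lines had 1.20, 1.17, 1.27 and 1.44 (lines 1, 2, 3 and 5). Pkp2 and Perp thus had like fold differences. The order of the del/del libraries was not the same: line 3 was lowest for Pkp2 and highest for Perp.

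Ajap1 (chr4:153373221-153482830) had the widest gap of the set. Its levels were 4.06, 3.41 and 2.65 log2 RPM in female del/del 1, 2 and 3 and 3.54 in male del/del 5. In fl/fl they were 0.90, -0.20 and -0.76 in females 1, 2 and 3 and 1.54 and -1.60 in males 5 and 7. The groups did not overlap, and their nearest values were 1.11 apart. The fitted log2 difference was 3.45 (SE 0.600), or 10.9-fold, while the ratio of pooled RPM was 7.97. Per line the difference was 3.17, 3.61, 3.41 and 1.99, or 3.99-fold in line 5 to 12.2-fold in line 2. The undeleted cultures themselves spread widely: male fl/fl 5 and male fl/fl 7 were the highest and the lowest of the 5, with 306 reads in the former and 38 in the latter. Ajap1 reached the filter's level in 2 of the 5 fl/fl libraries and in all 4 del/del libraries, so it was kept through the group where it was high.

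**Figure D2:**
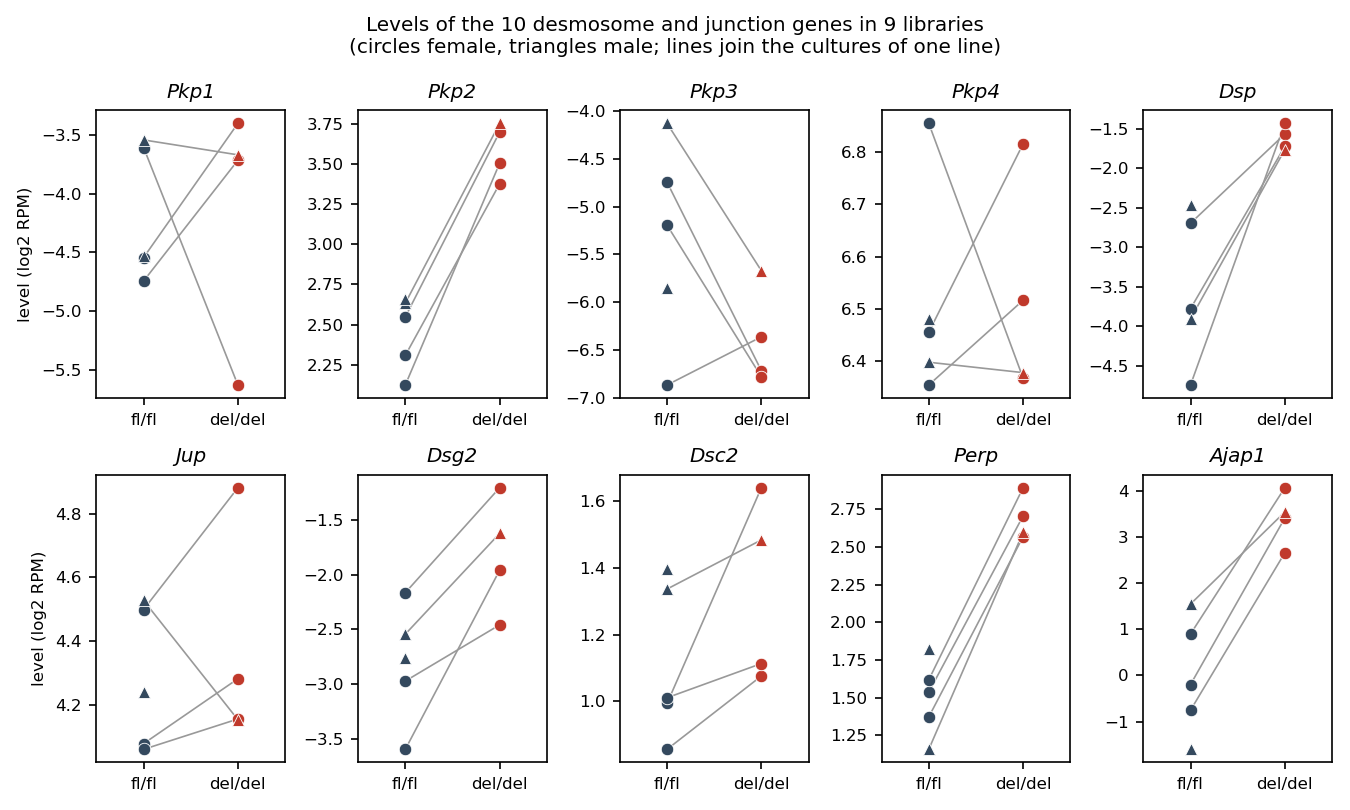
Log2 RPM of the 10 genes in the 4 del/del and 5 fl/fl libraries, with circles for female and triangles for male libraries and lines joining the cultures of one line. A gene without a read is drawn at the value of 0.9 reads; Pkp2, Perp, Ajap1 and the low Dsp have every del/del point above every fl/fl point, and for the other 6 genes the points overlap.

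**Figure D3:**
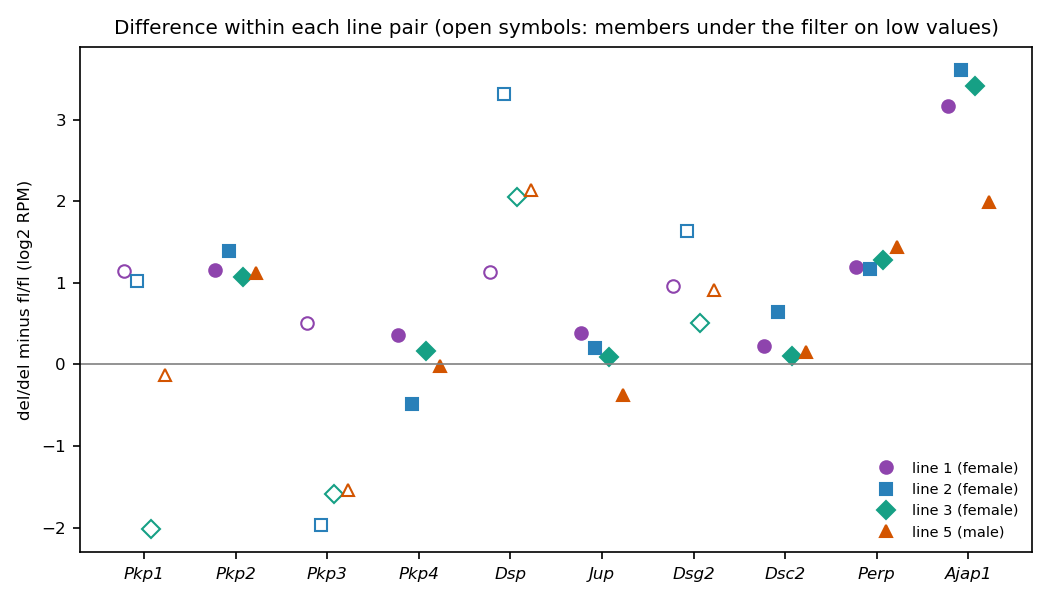
Difference in log2 RPM, del/del minus fl/fl, within each of the 4 lines that have both cultures. Pkp2 lies between 1.07 and 1.38 and Ajap1 between 1.99 and 3.61, while Jup and Pkp4 fall on both sides of 0.

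Of the 10 genes, 6 passed the filter on low values (Ajap1, Dsc2, Jup, Perp, Pkp2 and Pkp4), and 3 of these (Ajap1, Perp and Pkp2) were higher in del/del at an adjusted p under 0.05. Over all 14044 genes tested, 1.45% rose (203 genes) and 0.0997% fell (14 genes) by the same rule. Quantile normalization gave 86 rises and 18 falls. Groups did not overlap, with del/del higher, for 5.53% of all genes, and with del/del lower for 0.99%; none of the 6 was lower in every del/del library. Since the set was chosen on this contrast, nothing is read from the counts. Without male del/del 5, none of the 3 passed and 2 genes in all rose; the log2 differences were then 1.20 for Pkp2, 1.21 for Perp and 3.40 for Ajap1. Ajap1 did not pass, while the other 2 did, with quantile normalization and when female fl/fl 3 or either of female del/del 1 and 2 was left out.

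Descriptions of 6 libraries begin with the prefix RNA- and those of the other 3 do not. In the 6 prefixed libraries (3 del/del, 3 fl/fl) the log2 difference was 1.19 for Pkp2, 1.29 for Perp and 3.00 for Ajap1. In the other 3 (female del/del 1, female fl/fl 1 and male fl/fl 7) it was 1.10, 0.97 and 4.42, without adjustment for sex. Within line 1 alone, Ajap1 differed by 3.17. The set was chosen on these same differences, and the part of the prefix in them was not tested.

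The selection did not use sex, so the fl/fl libraries of the sexes can be compared by test. None of the 6 genes passed the test of female against male fl/fl libraries (adjusted p of 0.992 to 0.999, limma), where 0.0356% of all genes passed in either direction (5 of 14044; 14 genes had an unadjusted p under 0.05). Pkp2 was lower in females by a log2 difference of -0.32 (SE 0.173), and Dsc2 by -0.41 (SE 0.246). Ajap1 had a difference of 0.01, with an SE of 0.845 that leaves large differences undetected. The male fl/fl mean includes male fl/fl 7, whose line has no del/del culture. Within line 5, the male line with both cultures, Ajap1 differed by 1.99, and within the female lines by 3.17 to 3.61. From the group means, the effect (del/del minus fl/fl, log2 scale) was 3.40 in females and 3.57 in males for Ajap1. These effects were 1.20 and 1.11 for Pkp2, and 1.21 and 1.11 for Perp. The difference of these effects did not pass for any of the 6 genes (limma, adjusted p of 1.00), and the share of all genes that passed was 0 (6 genes had an unadjusted p under 0.05). With 1 male del/del library, that library was assumed to vary like the others. The SE of the difference was 0.278 for Pkp2 and 1.36 for Ajap1, so a sizeable difference of Ajap1 between the sexes was not detectable.

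Among other junction genes, periplakin (Ppl) rose in del/del. Of 62 kept genes on the lists of further desmosome, adherens, tight and gap junction genes, 1 rose (Ppl) and none fell, where 1.45% of all genes rose and 0.0997% fell, so that the share of rises was near that of all genes. Over the 62 genes the median log2 difference was -0.02, against -0.00 over all genes. In 7 of the 62, Ppl among them, every del/del library lay above every fl/fl library, and in 1 every del/del library lay below. Over all genes these shares were 5.53% and 0.99%. Periplakin is a plakin like desmoplakin that ties intermediate filaments to desmosomes and the cell cortex. It was at 3.99, 3.31, 2.19 and 3.56 log2 RPM in del/del (females 1 to 3, male 5) and at 1.78, 0.41, 1.11, 1.05 and 1.02 in fl/fl. Every del/del library lay above every fl/fl library, and the fitted log2 difference was 2.21 (SE 0.369), or 4.62-fold (adjusted p = 0.0194, limma). The call was kept in 13 of 19 settings; it was lost with quantile normalization (adjusted p = 0.0550) and when female del/del 1 (0.0709), female del/del 2 (0.0739), male del/del 5 (0.177), female fl/fl 3 (0.0603) or male fl/fl 5 (0.0517) was left out. The other kept desmosome genes did not pass: envoplakin (Evpl), the partner of periplakin, differed by 0.60 (adjusted p = 0.940), Kazn, whose product binds periplakin, by 0.29 (0.309), and Pnn by -0.17. Dsc1 had 456 reads and Dsc3 305 over all libraries, and Dsg4 had none.

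None of 28 adherens junction genes passed, with a median log2 difference of 0.00. The 2 with the smallest p were Lmo7, an afadin-binding scaffold, at 0.42 (SE 0.123, adjusted p = 0.180, limma), and Pvrl1 (nectin 1) at 0.27 (adjusted p = 0.553). Of 25 tight junction genes none passed, with a median of -0.09, and Inadl, a polarity scaffold, had 0.60 (SE 0.160, adjusted p = 0.123) and Pard6b 0.84 (SE 0.300, adjusted p = 0.308). Pard6b had a median of -0.04 log2 RPM in fl/fl and a minimum of 0.40 in del/del, so it was kept through the group where it was high. The 5 kept gap junction genes had a median of -0.45 and none passed. Gjc1 (connexin 45) was at -0.59 (SE 0.126, adjusted p = 0.0575), and passed as a fall in 4 of 19 settings, among them the fit with lines as a replicate block (adjusted p = 0.0476). Gjc3 was at -0.68 (SE 0.170, adjusted p = 0.102). Of the family to which Perp is related, Emp3 had 0.90 (SE 0.239, adjusted p = 0.128) and Emp1 0.41 (adjusted p = 0.484), and none of 5 such genes passed. The repressors of epithelial junction genes that were kept, Zeb1 at -0.12, Zeb2 at -0.04 and Tcf4 at -0.12, did not pass either.

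**Figure D4:**
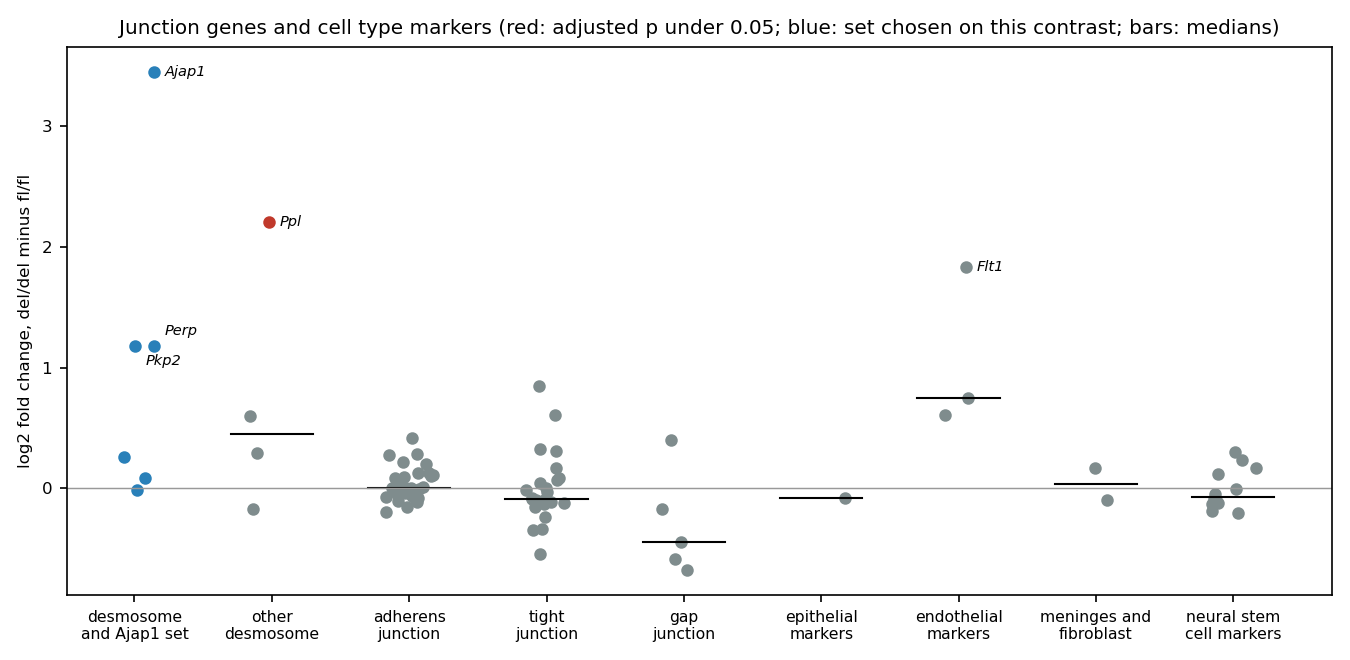
Log2 fold change, del/del minus fl/fl, of the kept genes of the chosen set, the junction lists and some marker lists. The marker lists drawn are epithelial, endothelial, meninges and fibroblast, and neural stem cell. Astrocyte, ependymal and choroid plexus, and cardiac muscle markers are not drawn. A bar marks each list's median except that of the chosen set. Ajap1 (3.45), Perp and Pkp2, drawn in blue as part of the chosen set, and Ppl (2.21, in red) lie above the adherens junction genes, whose median is 0.00.

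Desmosomes are more common in other cell types than in neural stem cells, so markers of those types were measured in the same libraries. Epithelial markers summed to 2.82 to 3.46 RPM in del/del and 2.10 to 3.99 RPM in fl/fl, and the defining genes had few reads: Epcam had 178 and Cdh1 56 reads over all libraries. Cldn4, a claudin on that list, was at -1.87 to -0.46 log2 RPM in del/del and -3.13 to -1.92 in fl/fl, without overlap, under the filter. Of the genes that passed the filter, 5.53% had every del/del library above every fl/fl library. Other markers of the list went both ways, with overlap. Median log2 RPM in del/del and fl/fl was -2.36 and -2.13 for Epcam, and -1.91 and -2.13 for Ovol1. Grhl2 differed by -0.08. Markers of meninges and fibroblasts, of which 2 of 10 were kept, summed to 21.6 to 32.7 RPM in del/del and 20.7 to 25.8 in fl/fl, with Lum at 0 reads and Dcn at 16 reads in all. The collagens of that list stood out in 1 library: in female del/del 2, Col1a1 was at 2.53 and Col1a2 at 2.67 log2 RPM, while no other library exceeded 0.06 and 0.58. Without female del/del 2, the log2 difference was 1.18 for Pkp2, 1.18 for Perp and 3.45 for Ajap1. Endothelial markers (3 of 7 kept) summed to 4.69 to 9.12 against 3.23 to 5.69 RPM, and Cdh5 and Cldn5 had 17 reads each. Flt1 had a log2 difference of 1.84 (adjusted p = 0.106, limma). Its median was -0.78 log2 RPM in fl/fl and 1.21 in del/del, so it passed the filter only with the del/del libraries, where it was high. Ependymal and choroid plexus markers (2 of 8 kept) summed to 17.3 to 20.4 RPM in del/del and 11.9 to 17.2 RPM in fl/fl, with no overlap. Cardiac muscle markers (4 of 6 kept), of interest for Pkp2 and Dsp, summed to 10.4 to 13.9 RPM in del/del and 11.7 to 18.1 RPM in fl/fl. Astrocyte markers (6 of 6 kept) summed to 123 to 163 against 92.3 to 135 RPM, and 3 of the 6 rose, where 1.45% of all genes rose. These were Gfap by 2.07 (adjusted p = 0.0194, limma), Aqp4 by 1.66 (0.0231) and Slc1a2 by 0.66 (0.0318). Aldoc at 0.00, S100b at 0.56 and Aldh1l1 at 0.30 did not pass. Calls of these markers in the other settings are not given here. The part of these markers in the levels of Pkp2, Perp and Ajap1 was not tested.

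The genes around Ajap1 and Pkp2 did not pass the test. Of 7 rows within 500 kb of Ajap1, 3 were kept, all 474 to 492 kb away, and their log2 differences were -0.02 for A430005L14Rik, -0.15 for Dffb and -0.04 for BC046331 (adjusted p of 0.788 to 0.999, limma). Of 8 rows within 500 kb of Pkp2, 7 were kept and none passed. The nearest, Yars2 at 30.3 kb, a mitochondrial tRNA synthetase, had -0.10, and Dnm1l at 39.5 kb, a fission GTPase of mitochondria, had -0.02. Fgd4, an exchange factor for Cdc42 at 144 kb, had 0.61 (SE 0.193, adjusted p = 0.228, limma), and its groups overlapped. On the other side, Prkdc had 0.24, Mzt2 0.02 and 2310008H04Rik 0.01. Spag6, at 480 kb, had 0.98 with an SE of 1.79, since its levels within fl/fl alone ran from -4.85 to 2.90 log2 RPM.

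**Figure D5:**
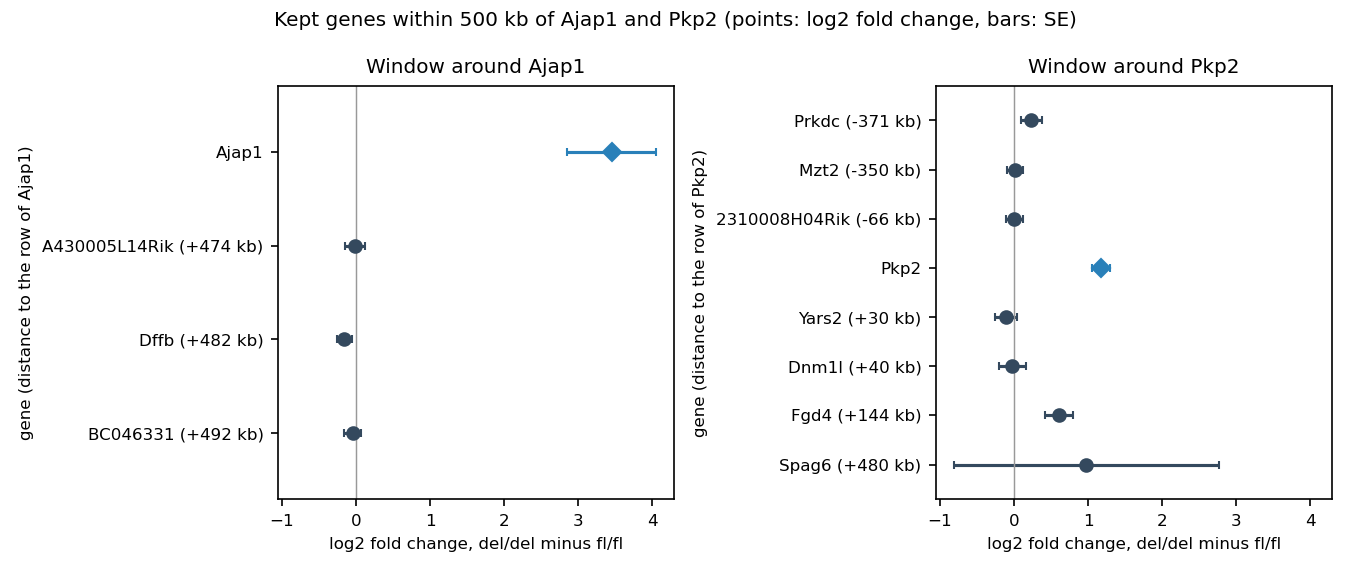
Log2 fold change, del/del minus fl/fl, with its SE, of the kept genes within 500 kb of Ajap1 (left) and Pkp2 (right), ordered by distance to the row. Ajap1 at 3.45 and Pkp2 at 1.17 are drawn in blue, and the neighbours' differences run from -0.15 to 0.98.

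The genes whose levels ran most like those of Ajap1 and Pkp2 were ranked by Pearson's r of the log2 level over the 9 libraries, among 8250 genes. The libraries share the step between del/del and fl/fl and their depth, so r is a description. Among the 5 nearest to Ajap1 were the ephrin Efna5 (r = 0.963), the annexin Anxa4 (0.956), Klhl4 (0.955) and the basement membrane protein Nid1 (0.953). Nearest to Pkp2 were the protocadherin Pcdhb7 (0.989), the matrix protein Frem1 (0.983), the transcription factor Runx1 (0.981), Lgals3bp (0.980) and the serpin Serpina3n (0.975). None of the 5 nearest to either gene was a member of the set. Ajap1 and Pkp2 had an r of 0.884 with each other, Pkp2 and Perp 0.872, and Ajap1 and Perp 0.703.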

How the data were processed

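Total RNA of 9 neural stem cell libraries was measured. Per the submitters' processing notes, the tools were TopHat2 2.0.12, edgeR 3.8.2 and bcl2fastq, with genome build mm10. Not given in the sources used here are the read counter, its annotation and its strand rule. The authors deposited each gene's level as log2 RPM. In every library at least 99.996% of values were log2 of whole reads times 1 constant (tolerance 0.05 reads, 0 reads entered as 0.9). Whole rows were counted, introns included: none of 2207 rows nested in another held more reads than its host.

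Groups came from the sample titles. The filter kept 14044 genes, those with 0 or more log2 RPM in 3 or more libraries. The deposited log2 values were fitted with limma 3.58.1 in R 4.3.3 (intensity trend, sex as covariate, two-sided), with Benjamini-Hochberg adjustment over all kept genes and a threshold of 0.05. Contrasts of the sexes came from a model of 4 group means. The fit was tested on simulated data. Replicates are lines, and the labels do not say whether each came from its own embryo. The main fit had no term for line, so the del/del and fl/fl cultures of a line entered as separate libraries. Its p-values therefore measure the spread between libraries of these lines and leave the pairing out.

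The members and lists were chosen with earlier results of these data known. Named are all 10 members and, of each list of junction genes, relatives and repressors, the genes that passed (at most 4) or else the 2 with the smallest p. The rule adds, for Ajap1 and Pkp2, kept neighbours within 500 kb and the 5 genes most alike over the libraries, of which 1 is not reported here. Cldn4, Gja1, genes printed with low reads and single genes of the marker lists were added with their values in view.

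Cultures of 4 lines are paired by line number, because the growth protocol says that each line was split. Across genes, deviations from the group means correlated within female lines 1, 2 and 3 at 0.868, 0.582 and 0.758. Between del/del of line 2 and fl/fl of line 3, r was 0.728. Of the female lines, line 1 alone came without the RNA- prefix, so its r cannot tell line from prefix. The pairing rests on the protocol and was not established by these values. Alternatives were a replicate block, median centring, both together, quantile normalization, log2(RPM + 1), no filter on low values and no sex covariate. Others were voom on recovered reads, the prefixed libraries alone, and leaving out each library. For the members, the mean of the 4 line pairs was a further setting.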

Additional observations from a re-analysis of the deposited data

Results flagged for a closer look

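Each member's values within the del/del and the fl/fl group, 20 groups in all, were searched for a library far from the others, with Dixon's critical value, which by its construction flags about 1 in 20 groups by chance. The search found 2 such libraries. Pkp1 in female del/del 3 was at -5.63 log2 RPM, from 2 reads, while the other del/del libraries lay between -3.72 and -3.40; the gap was 0.859 of the group's range. Pkp4 in female fl/fl 2 was at 6.85 log2 RPM, while the other fl/fl libraries lay between 6.35 and 6.48, a gap of 0.749 of the range. Female fl/fl 2 was the shallowest library. It also had the highest median over all kept genes, 4.46 log2 RPM against 4.10 to 4.26 in the other fl/fl libraries. The part of depth and of this offset in the Pkp4 value was not tested.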

How the results depend on the processing

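With lines as a replicate block, 529 genes rose and 32 fell, and the same 3 members passed. Quantile normalization gave 86 rises, the prefixed libraries gave 6 falls, and the block with median centring gave 24 falls. Of the junction genes, 2 rose with median centring, and 1 fell with the replicate block, with median centring, in the prefixed libraries and with the block and median centring together. Leaving out 1 library gave 2 to 243 rises and 0 to 15 falls over all genes, 0 to 2 rises and 0 to 1 falls of junction genes, and 0 to 3 members that passed. Per row length, 3 members kept their rank. Over 19 settings the log2 difference of Ajap1 ran from 2.48 to 3.83, of Perp from 0.95 to 1.29 and of Pkp2 from 1.04 to 1.24. Those 3 genes kept their direction in all 19 settings. Differences near 0 changed sign, with Jup between -0.08 and 0.23 and Pkp4 between -0.11 and 0.08. The cause of these changes was not tested. Reads limit Pkp1, Pkp3, Dsp and Dsg2, which stayed under the filter.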

Other observations

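Ajap1 and Ppl put the 4 del/del libraries in the same order, an observation made after their values were seen: female del/del 1, male del/del 5, female del/del 2 and female del/del 3. Ajap1 was at 4.06, 3.54, 3.41 and 2.65 log2 RPM in that order and Ppl at 3.99, 3.56, 3.31 and 2.19. Perp had the reverse at the ends, with female del/del 3 highest at 2.89 and female del/del 1 lowest at 2.57.

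Gja1 (connexin 43), the main gap junction protein of neural stem cells, had a log2 difference of 0.40 (adjusted p = 0.207, limma), opposite in sign to Gjc1 (-0.59) and Gjc3 (-0.68). It passed in 3 of 19 settings, with adjusted p from 0.0131 to 0.687 over them.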
